A study of Homo sapiens with 6 samples.

Results

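RNA from HCC827 cells was set against RNA from PC9 cells, both untreated. Both are human lung adenocarcinoma lines that depend on EGFR, and per the labels both carry an activating deletion in exon 19 of the gene (E19Del) and are sensitive to EGFR inhibitors. The comparison used 2 of the 6 libraries of the series, taken by their cell line label, and the 10482 of 21463 genes that reached 10 CPM (counts per 1000000 total exon reads, scaled between libraries) in either line. Each line has 1 library, so no difference below has a replicate check and no p-value was computed.

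The resistant sublines HCC827-GR and PC9-GR carry the same deletion and were selected with gefitinib over 90 days. The third parental line, H1975, has the EGFR changes L858R and T790M and was untreated. Its osimertinib-selected subline H1975-OR entered only the scaling of libraries and the ranges given over all libraries. Per the labels' protocols, the inhibitor concentration for half-maximal effect (IC50) over the 3 lines lay at 4.288 to 12.485 µM after selection, against 0.016 to 0.07 µM before it. The labels do not say whether a resistant line is a pool or a clone.

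EGFR is a receptor tyrosine kinase that dimerises with its relatives ERBB2 and ERBB3 after binding ligands such as amphiregulin, and signals through the RAS-ERK and PI3K-AKT pathways. A deletion in exon 19 holds the kinase in an active state and makes cells sensitive to gefitinib. Lung adenocarcinomas often keep markers of alveolar type II cells, such as the transcription factor NKX2-1 and the aspartic protease napsin A (NAPSA), but many lose them.

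The libraries held 28140012 exon reads for HCC827 and 21222102 for PC9, and the 6 libraries of the series ranged from 21222102 to 29366085. Uniquely mapping reads were 90.8% to 91.7% of these totals. Where a gene has no read, up to 3 reads are allowed, which is 0.109 CPM in HCC827 and 0.145 CPM in PC9. Mitochondrial genes took 3.32% of the reads in HCC827 and 6.47% in PC9, against 4.67% to 6.86% in the other 4 libraries, and the part of this in the results was not tested. Epithelial markers were present in both lines, with all 6 (EPCAM, CDH1, KRT7, KRT8, KRT18 and KRT19) above 10 CPM in each and sums of 13363 CPM in HCC827 and 8709 CPM in PC9. Of 6 lung lineage markers 3 passed 10 CPM in HCC827 and 0 passed it in PC9, with sums of 522 CPM in HCC827 and 0.533 CPM in PC9, so the lung markers on this list are absent or near the floor in PC9. Leukocyte markers summed to 82.8 CPM in HCC827, most of it the lysosomal protein CD68 at 80.6 CPM, and to 194 CPM in PC9, most of it LAPTM5 at 142 CPM. The defining leukocyte gene PTPRC had 3 reads in each line, and 3 of 11 leukocyte markers in each line had no read. Endothelial markers summed to 1.53 CPM in HCC827 and 20.2 CPM in PC9, with PECAM1 at 0.401 CPM in HCC827 and 14.4 CPM in PC9, and fibroblast markers summed to 22.1 CPM in HCC827 and 15.1 CPM in PC9. The part of these transcripts in the results was not tested. In bulk RNA, fewer cells of a kind and less RNA per cell cannot be told apart.

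Of the 10482 genes, 1535 (14.6%) were at least 2-fold higher in HCC827 and 1501 (14.3%) at least 2-fold lower, which makes 3036 genes (29.0%) in all. Log2 ratios are HCC827 over PC9 after adding 1 CPM to each value, while folds are ratios of the CPM themselves. The median log2 ratio was -0.01, the median size of the ratio was 0.60, and 7446 genes (71.0%) lay within 2-fold. A 16-fold difference was reached by 120 genes (1.14%) in the direction of HCC827 and by 165 genes (1.57%) in that of PC9, 2.72% in all. Passing 10 CPM in only 1 line makes a large ratio likely by construction. That held for 944 genes through HCC827 alone and for 804 through PC9 alone. Among the 8734 genes above 10 CPM in both lines, 846 were 2-fold higher in HCC827 and 879 were 2-fold lower, with a median of -0.02. For scale, HCC827 differed 2-fold from H1975 at 34.7% of genes and PC9 differed from H1975 at 34.6%. These comparisons share libraries and are given side by side only. Across genes, log2 levels correlated at r = 0.671 between HCC827 and PC9, 0.652 between HCC827 and H1975 and 0.605 between PC9 and H1975, which describes these libraries, as genes are not independent replicates.

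**Figure D1:**
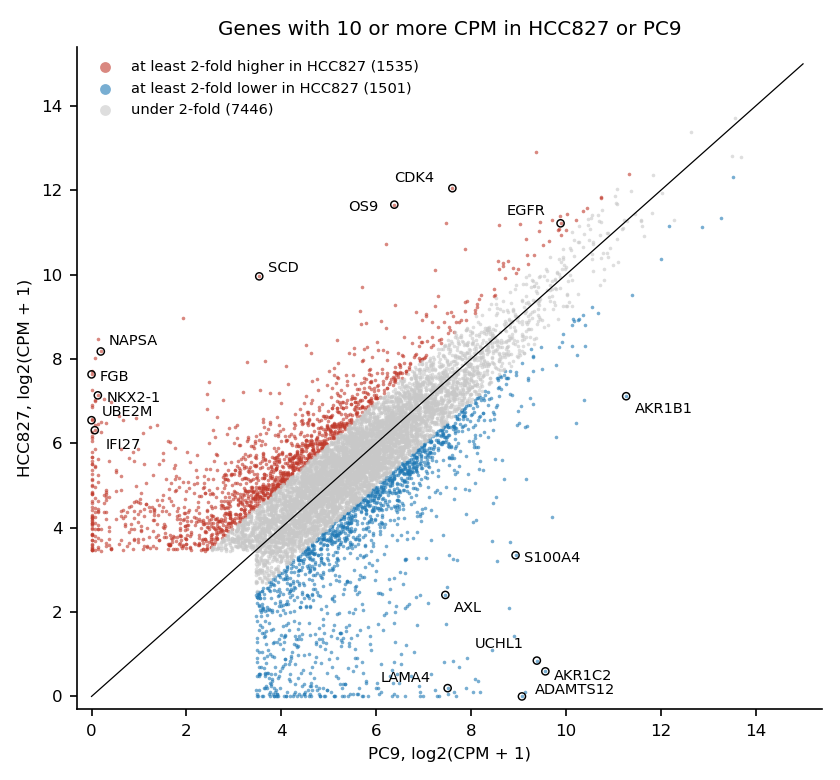
Level of each of 10482 genes in HCC827 (y axis, log2 of CPM plus 1) against PC9 (x axis, same scale), 1 point per gene and 1 library per line. Genes at least 2-fold higher in HCC827 (1535) are red, those at least 2-fold lower (1501) are blue, and the 7446 within 2-fold are grey. The circled genes on both axes' edges, such as NAPSA and ADAMTS12, are at or near 0 in the other line.

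The 15 genes furthest to the side of HCC827 included 2 of the lung lineage. NAPSA stood at 289 CPM in HCC827 (7940 reads) and 0.145 CPM in PC9 (3 reads), a fold of 1990 with a 95% exact (Clopper-Pearson) interval of 681 to 9651 that covers counting error only. NKX2-1, the homeobox factor of lung and thyroid (chr14:36516392-36521149 on hg38), stood at 140 CPM in HCC827 (3854 reads) and 0.0969 CPM in PC9 (2 reads), 1449-fold higher with an interval of 401 to 11968. Both thus sit at the floor in PC9. The fibrinogen chain FGB, a liver secretory product, was read at 198 CPM in HCC827 and had no read in PC9, at least 1359-fold higher against the floor of 3 reads per library. The matrix proteoglycan versican (VCAN) stood at 153 CPM in HCC827 and 0 in PC9, at least 1055-fold higher. NNMT, which methylates nicotinamide, had 261 CPM in HCC827 and 1 read (0.0485 CPM) in PC9, a fold of 5377 whose interval of 965 to 212424 shows how little a lone read fixes. The others among them were APOL1, TM4SF18, KRT4, BASP1, RARRES3, UBE2M, SCD, DPYSL3, IFI16 and HHLA2. APOL1, an apolipoprotein that kills trypanosomes and responds to interferon, was at 501 CPM in HCC827 and 2.81 CPM in PC9 (178-fold, 138 to 235). SCD, the desaturase that makes oleic acid, was at 996 CPM in HCC827 and 10.6 CPM in PC9 (94.2-fold, 82.5 to 108), the only gene of the 15 above 10 CPM in both lines. The DNA sensor IFI16 had 87.6 CPM in HCC827 and 0.0969 CPM in PC9, and 343 CPM in H1975.

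By the same rule, the 15 genes furthest to the side of PC9 had 151 to 758 CPM in PC9 and at most 1.71 CPM in HCC827. Left out was, for example, TIMP3, with a log2 ratio of -9.04 but 12% unique reads. ADAMTS12, a secreted metalloprotease, had no read in HCC827 and 11095 reads (538 CPM) in PC9, at least 4919-fold lower in HCC827. The steroid reductase AKR1C2 stood at 0.510 CPM in HCC827 and 758 CPM in PC9, 1486-fold lower (886 to 2719), and its neighbour AKR1C1 at 1.71 CPM in HCC827 and 481 CPM in PC9, 281-fold lower (211 to 382). The 2 paralogs are near-identical, and the way in which the authors' counting shared reads between them is not given in the sources used here. UCHL1, a ubiquitin hydrolase of neurons, was at 0.802 CPM in HCC827 and 669 CPM in PC9, 834-fold lower (551 to 1331). Complement component C3 was at 1.13 CPM in HCC827 and 347 CPM in PC9 (307-fold lower, 216 to 452), and INHBA, a subunit of activin A, at 0.875 CPM in HCC827 and 240 CPM in PC9 (275-fold lower, 184 to 429). C3 and INHBA did not keep that gap in the resistant lines, where C3 was at 33.8 CPM in HCC827-GR and 20.6 CPM in PC9-GR and INHBA at 107 CPM in HCC827-GR and 210 CPM in PC9-GR. The rest of the 15 were KLK5, a serine protease, SULF2, a sulfatase of heparan sulfate, calretinin (CALB2), the chloride channel ANO1, the guanine deaminase GDA, the aldehyde dehydrogenase ALDH3A1, C6orf15, the laminin chain LAMA4 and the membrane raft protein MAL, which ranged from 151 to 290 CPM in PC9 with at most 8 reads in HCC827.

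Gene groups were read from 39 lists of pathway and lineage genes, of which 890 of 896 members were found in the files. For each list the count of members 2-fold higher or lower stands beside the share of all genes, 14.6% higher and 14.3% lower, and its median beside that of all genes, -0.01. For counts in the resistant pair the share of the same genes is 16.6% higher and 16.9% lower. A list describes these 2 libraries, and no test of lists was made.

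**Figure D2:**
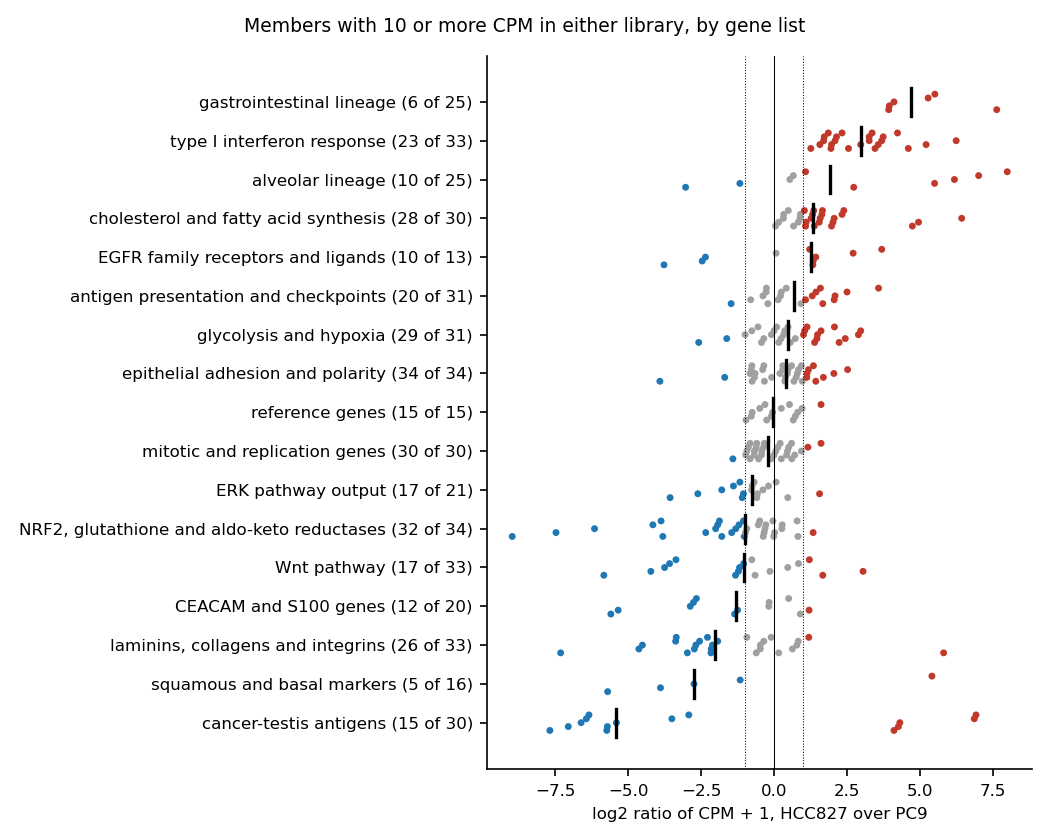
Log2 ratio HCC827 over PC9 (x axis) of each counted member of 17 gene lists (rows), 1 point per gene, with a black bar at the list's median and dotted lines at a 2-fold difference in either direction. All 23 interferon response genes lie to the right of the right-hand line, and the points of the laminin, collagen and integrin list and of the NRF2 list lie mostly to the left of 0.

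EGFR itself was higher in HCC827. EGFR (chr7:55019021-55211628 on hg38) had 65401 reads and 2383 CPM in HCC827, against 19541 reads and 947 CPM in PC9, 2.52-fold higher (2.48 to 2.56). The H1975 library had 389 CPM. In the resistant lines the order was turned, with 145 CPM in HCC827-GR and 856 CPM in PC9-GR, a log2 ratio of -2.56 against 1.33 in the parental pair. ERBB2, the ligandless partner of the family, was at 186 CPM in HCC827 and 72.6 CPM in PC9 (2.56-fold, 2.42 to 2.71). ERBB3, which has an impaired kinase and couples to PI3K, was at 99.0 CPM in HCC827 and 94.4 CPM in PC9. ERBB4 had 7 reads in HCC827 and 4 in PC9.

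The EGFR ligands divided between the lines. Amphiregulin (AREG) stood at 209 CPM in HCC827 and 31.0 CPM in PC9, 6.72-fold higher (6.19 to 7.31), and epiregulin (EREG) at 225 CPM in HCC827 and 83.3 CPM in PC9, 2.71-fold higher. NRG1, the ligand of ERBB3 and ERBB4, was at 42.0 CPM in HCC827 and 2.33 CPM in PC9, 18-fold higher (13.5 to 24.6). Betacellulin (BTC) was at 22.2 CPM in HCC827 and 8.97 CPM in PC9. On the other side, HBEGF was at 8.71 CPM in HCC827 and 131 CPM in PC9, 15.1-fold lower (13.2 to 17.3), TGFA at 17.9 CPM in HCC827 and 95.4 CPM in PC9, 5.33-fold lower (4.83 to 5.90), and EGF at 2.48 CPM in HCC827 and 18.2 CPM in PC9. Large gaps thus ran in both directions within the ligand family. Of the 13 receptors and ligands listed, 10 were counted, 6 of them higher and 3 lower by 2-fold, and of the 6 above 10 CPM in both lines 4 were higher and 1 was lower. In the resistant pair, where 16.6% of the 10482 genes were 2-fold higher and 16.9% lower, 2 were higher and 5 lower, and AREG stood at 13.8 CPM in HCC827-GR and 34.5 CPM in PC9-GR, while TGFA was nearly absent from HCC827-GR at 0.0375 CPM, against 77.4 CPM in PC9-GR.

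Genes next to EGFR on chromosome 7 were also higher in HCC827. SEC61G, a small subunit of the translocon, stood at 2377 CPM in HCC827 and 177 CPM in PC9, 13.4-fold higher (13 to 13.9), a wider gap than that of EGFR. LANCL2 was at 478 CPM in HCC827 and 67.9 CPM in PC9, 7.05-fold higher, and VOPP1 at 2332 CPM in HCC827 and 383 CPM in PC9, 6.09-fold higher. Of the 14 genes within 5 Mb of EGFR, with EGFR among them, 7 were 2-fold higher and 0 lower, with a median of 1.01, and of the 7 ZNF713 and MRPS17 had only 19% and 11% unique reads. The difference was not uniform along the chromosome, since CCT6A had a log2 ratio of 0.34, NIPSNAP2 of 0.01 and FIGNL1 of -0.56. In the resistant pair the same 14 genes had a median of -1.44, with 1 higher and 10 lower. SEC61G stood at 72.1 CPM in HCC827-GR and 237 CPM in PC9-GR, VOPP1 at 165 CPM in HCC827-GR and 445 CPM in PC9-GR, and LANCL2 at 26.6 CPM in HCC827-GR and 55.9 CPM in PC9-GR. Copy number was not measured in these libraries, and its part in these values was not tested.

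The cell cycle kinase CDK4 and its neighbours on chromosome 12 stood far higher in HCC827, a region picked out after its values were seen. CDK4, which phosphorylates RB1 with cyclin D, was at 4243 CPM in HCC827 and 194 CPM in PC9, 21.9-fold higher (21.2 to 22.6), and 179 CPM in H1975. OS9, a lectin of endoplasmic reticulum quality control, was at 3238 CPM in HCC827 and 82.5 CPM in PC9, 39.2-fold higher (37.4 to 41.2). PIP4K2C, a lipid kinase, was at 1684 CPM in HCC827 and 73.4 CPM in PC9, 22.9-fold higher, and TSPAN31, which lies against CDK4, was at 246 CPM in HCC827 and 11.6 CPM in PC9. The genes from PIP4K2C to MARCH9 had log2 ratios of at least 1.53, and METTL1, TSFM and CTDSP2 beyond them had 0.91, 0.87 and 0.38. Further along, the innate immune kinase TBK1 was at 351 CPM in HCC827 and 35.2 CPM in PC9 (9.96-fold higher) and TBC1D30 at 154 CPM in HCC827 and 10.7 CPM in PC9 (14.4-fold). RASSF3, between them, was at 57.9 CPM in HCC827 and 60.6 CPM in PC9 in exon reads, while its intron reads gave a log2 ratio of 4.79. Of 128 genes within 8 Mb of CDK4, itself included, 31 were 2-fold higher and 6 lower with a median of 0.49, beside 14.6% higher and 14.3% lower among all genes. At least 8-fold higher were 10, for which the share of all genes is not given here. These 10 include KRT4, SCN8A, HOXC10 and METTL7B, which lie outside the stretches described above and passed 10 CPM through HCC827 alone. Unlike EGFR, CDK4 kept its gap in the resistant pair at 5182 CPM in HCC827-GR and 187 CPM in PC9-GR, as did OS9 at 5091 CPM in HCC827-GR and 110 CPM in PC9-GR. TBC1D30 did not, at 5.70 CPM in HCC827-GR and 12 CPM in PC9-GR.

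**Figure D3:**
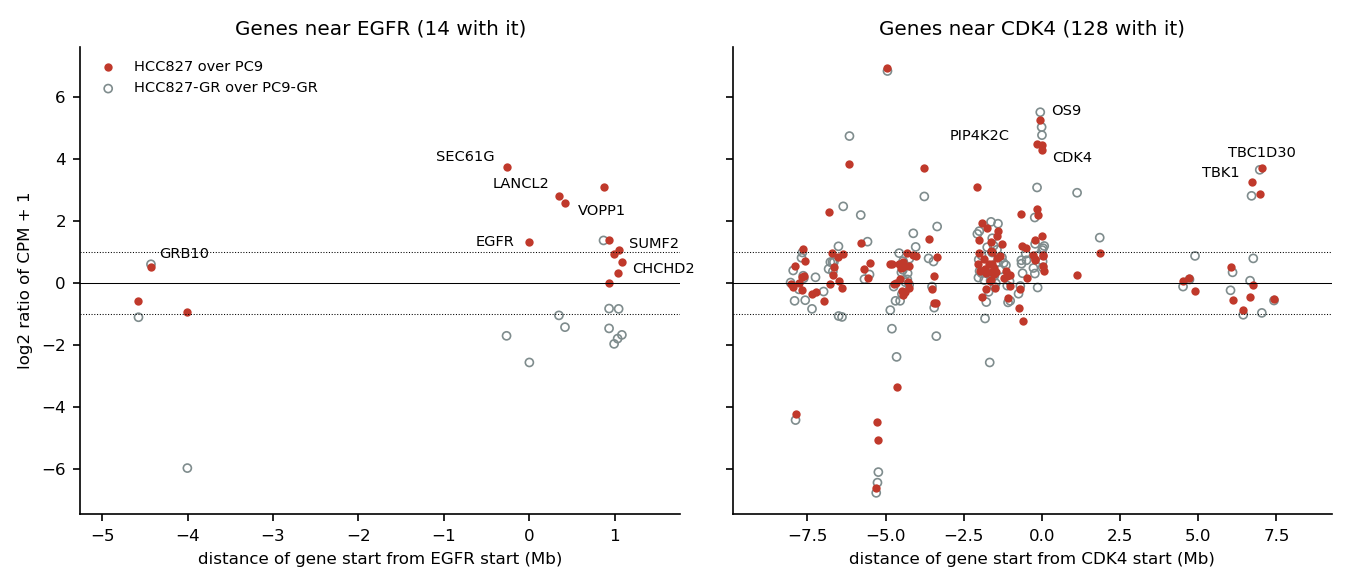
Log2 ratio (y axis) of genes against the distance of their start from EGFR or from CDK4 in Mb (x axis), 14 genes around EGFR and 128 around CDK4. Filled points are HCC827 over PC9 and open points HCC827-GR over PC9-GR. Around EGFR the filled points of SEC61G, LANCL2, VOPP1 and EGFR lie above 1 and their open points below -1, while at CDK4 and OS9 both points are high.

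Among 42 other receptor tyrosine kinases and ligands, 26 were counted, with 6 higher and 9 lower in HCC827 and a median of -0.12. Of the 26, 5 passed 10 CPM through HCC827 alone and 6 through PC9 alone, which fixes their direction. Among the 15 above 10 CPM in both lines 3 were higher and 3 lower, with a median of -0.02. AXL, a receptor for GAS6 known from inhibitor-tolerant lung cancer cells, stood at 4.30 CPM in HCC827 and 175 CPM in PC9, 40.6-fold lower (33.8 to 49.2). Its level was 387 CPM in HCC827-GR and 334 CPM in PC9-GR, so the gap was not seen there. FGFR1 was at 1.79 CPM in HCC827 and 20.6 CPM in PC9 (11.5-fold lower), whereas FGFR3 was at 14.8 CPM in HCC827 and 0.872 CPM in PC9 (17.0-fold higher) and FGFR4 at 44.4 CPM in HCC827 and 13.3 CPM in PC9. The fibroblast growth factor receptors thus lay on both sides, though FGFR1 passed 10 CPM through PC9 alone and FGFR3 through HCC827 alone. The ephrin ligand EFNB2 was at 24.8 CPM in HCC827 and 198 CPM in PC9, PDGFB at 6.85 CPM in HCC827 and 62.9 CPM in PC9, and the kinase-dead EPHB6 had no read in HCC827 and 33.4 CPM in PC9, at least 306-fold lower. MET, whose amplification is a known route to inhibitor resistance, was at 470 CPM in HCC827 and 281 CPM in PC9, under 2-fold apart at 1.67-fold (1.62 to 1.73). Its ligand HGF had 189 reads in HCC827 and none in PC9, at least 47.4-fold higher at a level too low to be counted.

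Transcripts known to follow ERK activity were more often lower than higher in HCC827. Of 21 such genes 17 were counted, 1 of them 2-fold higher and 7 lower with a median of -0.75, and 16 of the 17 were above 10 CPM in both lines. The phosphatase DUSP4, which acts on ERK in the nucleus, was at 19.2 CPM in HCC827 and 237 CPM in PC9, 12.3-fold lower (11.3 to 13.5), and at 8.29 CPM in HCC827-GR and 237 CPM in PC9-GR. IER3 was at 46.6 CPM in HCC827 and 289 CPM in PC9 (6.21-fold lower), the ETS factor ETV4 at 24.1 CPM in HCC827 and 86.1 CPM in PC9 and ETV5 at 23.8 CPM in HCC827 and 54.9 CPM in PC9. The feedback inhibitors SPRY2, SPRY4 and SPRED1 were 2-fold lower as well, with log2 ratios of -1.09, -1.39 and -1.05. The phosphatase DUSP6, often used as a readout of ERK, was close at 51.4 CPM in HCC827 and 58.9 CPM in PC9. The only member on the other side by 2-fold was the immediate-early factor EGR1, at 66.9 CPM in HCC827 and 22.1 CPM in PC9 (3.03-fold higher, 2.74 to 3.37).

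Further lung lineage genes lay on the side of HCC827. Of 25 alveolar genes 10 were counted, 6 higher and 2 lower with a median of 1.90, but 4 of the 6 passed 10 CPM through HCC827 alone. Of the 5 above 10 CPM in both lines 2 were higher and 1 was lower, with a median of 0.66. Over all 25, 18 had a ratio above 0 and 6 below. SFTA2 stood at 89.1 CPM in HCC827 and 0.242 CPM in PC9 (368-fold higher, 157 to 1133), and SFTA3, which lies beside NKX2-1, at 44.4 CPM in HCC827 and 0 in PC9, at least 305-fold higher. LPCAT1, which makes surfactant phospholipid, was at 1555 CPM in HCC827 and 234 CPM in PC9, 6.64-fold higher. The surfactant proteins themselves were scarce in HCC827 too, SFTPB at 3.32 CPM in HCC827 and 0.0485 CPM in PC9, and SFTPC at 1 read in HCC827 and 0 in PC9. CEBPA, a factor of alveolar type II and liver cells, ran the other way at 1.35 CPM in HCC827 and 18.2 CPM in PC9 (13.5-fold lower). In the resistant pair 8 of the 10 were higher and 2 lower with a median of 1.73, beside 16.6% higher and 16.9% lower among all genes. HCC827-GR had 28.9 CPM of NAPSA, 3.26 CPM of SFTA2, 0.0375 CPM of SFTPB and 121 CPM of NKX2-1. PC9-GR had 0.336, 0.461, 0.0839 and 0.252 CPM of NAPSA, SFTA2, SFTPB and NKX2-1.

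HCC827 also held transcripts of mucus-secreting and gastrointestinal or liver cells. The mucin MUC5B stood at 98.7 CPM in HCC827 and 0.485 CPM in PC9 (204-fold higher, 111 to 425), MUC1 at 146 CPM in HCC827 and 12.6 CPM in PC9, and MUC13 at 14.6 CPM in HCC827 and 0.0969 CPM in PC9. Other airway secretory genes were on the side of PC9, with the antibacterial lipocalin LCN2 at 89.2 CPM in HCC827 and 1182 CPM in PC9 (13.3-fold lower, 12.7 to 13.8) and the protease inhibitor SLPI at 4.81 CPM in HCC827 and 77.3 CPM in PC9 (16.1-fold lower). In all, 10 of 28 airway genes were counted, 5 higher and 2 lower, with 3 passing 10 CPM through HCC827 alone and 1 through PC9 alone. Among the 6 above 10 CPM in both lines 2 were higher and 1 was lower, with a median of 0.53. Over all 28, 11 had a ratio above 0 and 11 below, so the airway list as a whole had no direction. In the resistant pair 2 airway genes were higher and 5 lower with a median of -1.66, beside 16.6% higher and 16.9% lower among all genes. Of 25 gastrointestinal and liver genes 6 were counted, all 6 through HCC827 alone, which fixes their direction. They included alpha-1-antitrypsin (SERPINA1) at 44.7 CPM in HCC827 and 0 in PC9 (at least 307-fold higher). The actin bundler villin (VIL1) was at 15.7 CPM in HCC827, with 54% of these reads unique, and 0.0969 CPM in PC9. Of all 25, 15 had a ratio above 0 and 4 below. MUC5B was at 0.562 CPM in HCC827-GR and 0 in PC9-GR.

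Several basal and squamous keratins were read mainly in PC9. Of 18 keratins 14 were counted, 3 higher and 5 lower. All 5 lower ones passed 10 CPM through PC9 alone, which fixes their direction, and of the 7 above 10 CPM in both lines 1 was higher and 0 lower, with a median of 0.61. KRT6B was at 0.765 CPM in HCC827 and 172 CPM in PC9 (224-fold lower), KRT5, the basal keratin, at 0.146 CPM in HCC827 and 37.6 CPM in PC9 (258-fold lower, 100 to 949), and KRT6A at 8.35 CPM in HCC827 and 209 CPM in PC9 (25.1-fold lower). KRT4 and KRT20 were the reverse, at 128 and 17.4 CPM in HCC827 and 0.0485 and 0.242 CPM in PC9. The simple-epithelium keratins KRT7, KRT8 and KRT18 were within 2-fold, with KRT18 for example at 3277 CPM in HCC827 and 2152 CPM in PC9. Of 16 squamous and basal genes 5 were counted, 4 through PC9 alone and 1 through HCC827 alone, which fixes their direction, and over all 16 the ratio was above 0 for 8 and below 0 for 8. TRIM29 was at 0.255 CPM in HCC827 and 64.3 CPM in PC9 (252-fold lower), and the desmosomal plakophilin PKP1 at 0 in HCC827 and 13.9 CPM in PC9 (at least 127-fold lower). SOX2, a factor of squamous and stem cells, was the exception at 43.4 CPM in HCC827 and 1 read (0.0485 CPM) in PC9. It had 0.0375 CPM in HCC827-GR and 0.0419 CPM in PC9-GR.

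Genes of the type I interferon response were higher in HCC827. They are induced when interferon activates a complex with STAT2 and IRF9, which binds an interferon-stimulated response element in their promoters. Of 33 listed, 23 were counted and all 23 were at least 2-fold higher in HCC827, with a median of 2.97. Of the 23, 18 passed 10 CPM through HCC827 alone, which fixes their direction, and 5 passed in both lines, all 5 of them 2-fold higher with a median of 1.86. The 10 not counted, OAS2 and RSAD2 among them, had ratios of 0.13 to 3.27, so that all 33 lay above 0.

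The promoters of 4 of these genes are shown because they carry the letters of the response element and belong to members with some of the largest gaps and to ISG15, the ubiquitin-like modifier. Each line gives the 250 bases before the start of the gene, 5′ to 3′ on the strand of the gene, from RefSeq on GRCh38.p14, with capitals where the core of the element, GAAA, any 2 bases and GAAA, is matched on either strand.
IFI27 (chr14:94110486-94110735, plus strand): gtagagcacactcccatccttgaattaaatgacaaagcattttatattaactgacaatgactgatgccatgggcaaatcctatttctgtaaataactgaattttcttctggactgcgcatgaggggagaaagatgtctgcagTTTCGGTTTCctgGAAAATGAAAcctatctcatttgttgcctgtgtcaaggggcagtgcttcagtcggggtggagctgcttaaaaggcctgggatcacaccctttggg
IFI44L (chr1:78620198-78620447, plus strand): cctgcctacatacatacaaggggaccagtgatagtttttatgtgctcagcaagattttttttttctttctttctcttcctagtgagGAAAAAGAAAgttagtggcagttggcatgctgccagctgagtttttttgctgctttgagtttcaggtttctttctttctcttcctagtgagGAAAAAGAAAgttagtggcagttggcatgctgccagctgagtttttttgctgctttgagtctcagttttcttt
BST2 (chr19:17405631-17405880, minus strand): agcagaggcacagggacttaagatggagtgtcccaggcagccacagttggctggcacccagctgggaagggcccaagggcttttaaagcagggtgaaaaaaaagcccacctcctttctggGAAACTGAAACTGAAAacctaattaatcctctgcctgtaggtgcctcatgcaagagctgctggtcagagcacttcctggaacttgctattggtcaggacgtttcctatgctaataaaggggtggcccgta
ISG15 (chr1:1013247-1013496, plus strand): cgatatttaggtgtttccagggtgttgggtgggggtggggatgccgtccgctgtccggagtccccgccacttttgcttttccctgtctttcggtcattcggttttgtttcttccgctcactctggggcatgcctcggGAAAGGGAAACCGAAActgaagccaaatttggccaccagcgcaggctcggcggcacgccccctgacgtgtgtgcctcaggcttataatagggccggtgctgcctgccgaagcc
Each holds 2 matches. Those of IFI27 lie 85 to 108 bases before the start and those of IFI44L 63 to 164, while the 2 matches overlap in BST2 (114 to 130) and in ISG15 (97 to 113). A promoter from 250 bases before to 50 after the start was found for 20 of the 23 counted members (87.0%), and 14 of the 20 (70.0%) held the motif, against 230 of 8603 (2.67%) of all counted genes with a promoter. The members are known targets of this element, so the share is a description. The median log2 ratio was 3.31 for the 14 with a match and 2.20 for the members without.

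IFI27 stood at 78.5 CPM in HCC827 and 1 read (0.0485 CPM) in PC9, with a fold of 1619 and an interval of 290 to 63967. BST2, or tetherin, which holds budding virus at the cell surface, was at 46.9 CPM in HCC827 and 0.291 CPM in PC9 (161-fold higher, 73.8 to 440), and IFI44L at 19.6 CPM in HCC827 and 0.0969 CPM in PC9 (202-fold, 55.7 to 1674). ISG15 was at 81.5 CPM in HCC827 and 6.50 CPM in PC9 (12.6-fold, 10.5 to 15.1). The antiviral GTPase MX1 was at 26.2 CPM in HCC827 and 1.84 CPM in PC9, and OAS1, which activates RNase L, at 18.3 CPM in HCC827 and 0.630 CPM in PC9. The factors of the pathway were higher as well. STAT2 was at 35.6 CPM in HCC827 and 10.3 CPM in PC9, IRF1 at 41.9 CPM in HCC827 and 10.8 CPM in PC9, and IRF7 at 19.4 CPM in HCC827 and 3.78 CPM in PC9. The counts of IRF9 and IFIT3 rest on reads of which only 3% and 7% mapped uniquely, and their values are uncertain. USP18, which restrains the pathway, had the lowest ratio of the counted members at 13.7 CPM in HCC827 and 5.14 CPM in PC9, a log2 ratio of 1.26.

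The gap was smaller in the resistant pair, where 18 members were 2-fold higher and 0 lower with a median of 1.57, beside 16.6% higher and 16.9% lower among all 10482 genes in that pair. BST2 was at 4.20 CPM in HCC827-GR and 0.755 CPM in PC9-GR and IFI27 at 2.89 CPM in HCC827-GR and 0.965 CPM in PC9-GR. The H1975 library had 73.0 CPM of IFI27 and 133 CPM of BST2.

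**Figure D4:**
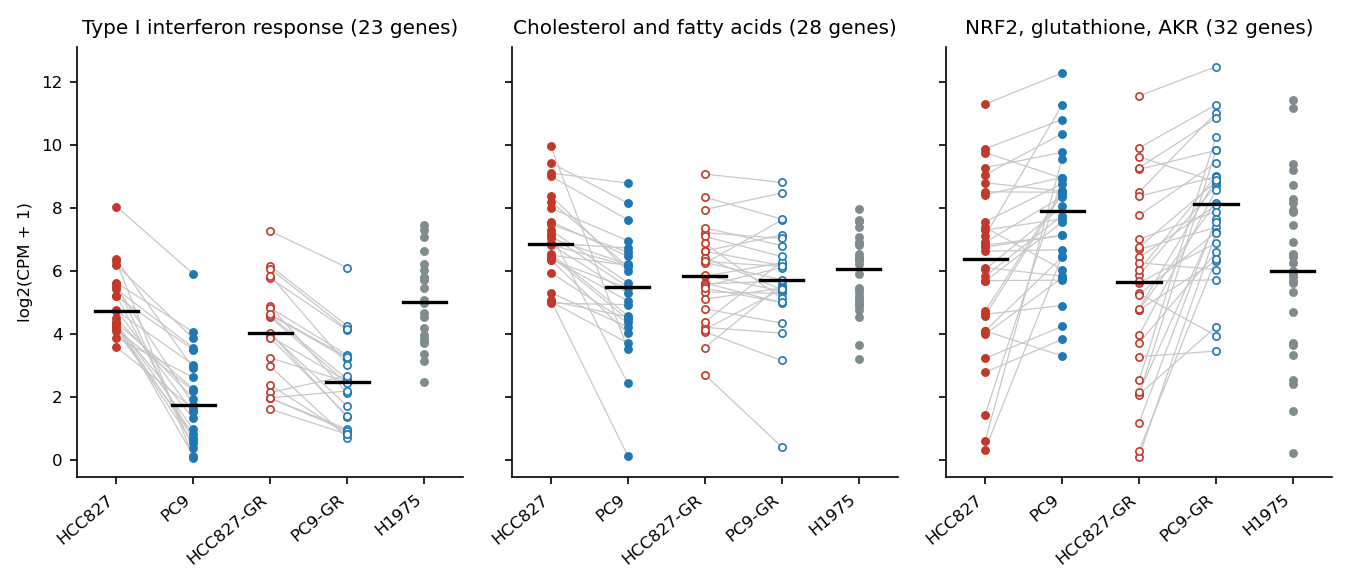
Level (y axis, log2 of CPM plus 1) of the counted members of 3 lists, 23 interferon response genes, 28 cholesterol and fatty acid genes and 32 NRF2 genes, in HCC827, PC9, HCC827-GR, PC9-GR and H1975 (x axis). Points are genes, lines join a gene within a pair and bars are medians over genes of 1 library. Lines run down to the right from HCC827 to PC9 for the first 2 lists, and mostly up for the NRF2 list.

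Antigen presentation genes were partly higher. Of 31 listed 20 were counted, 9 higher and 1 lower with a median of 0.67, and of the 15 above 10 CPM in both lines 4 were higher and 1 was lower, with a median of 0.22. The immunoproteasome subunits stood out, with PSMB9 at 23.1 CPM in HCC827 and 1.02 CPM in PC9 (22.7-fold higher, 14.7 to 36.9), PSMB10 at 86.1 CPM in HCC827 and 14.4 CPM in PC9, and PSMB8 at 115 CPM in HCC827 and 26.9 CPM in PC9 (4.28-fold). HLA-B was at 204 CPM in HCC827 and 63.4 CPM in PC9 (3.22-fold), a gene whose paralogs can share reads, and at 169 CPM in HCC827-GR and 220 CPM in PC9-GR. B2M, the common light chain of class I, was at 562 CPM in HCC827 and 471 CPM in PC9. The checkpoint ligand CD274 (PD-L1) was at 20.6 CPM in HCC827 and 9.26 CPM in PC9, 2.23-fold higher (1.89 to 2.64), and the single lower member was NECTIN2 at 35.2 CPM in HCC827 and 99.4 CPM in PC9. Targets of NF-kB did not share a direction. Of 33 listed 18 were counted, 6 higher and 6 lower, but 4 passed 10 CPM through HCC827 alone and 3 through PC9 alone, which fixes their direction. Among the 11 above 10 CPM in both lines 2 were higher and 4 lower. The neutrophil chemokine CXCL5 was at 71.7 CPM in HCC827 and 0 in PC9 (at least 493-fold higher). ICAM1 was at 129 CPM in HCC827 and 24.1 CPM in PC9, and the NF-kB inhibitor TNFAIP3 at 19.5 CPM in HCC827 and 124 CPM in PC9 (6.34-fold lower). Complement and serpin genes were split too, with 5 of 15 counted higher and 6 lower, C3 among the lower. Here 4 passed 10 CPM through HCC827 alone and 4 through PC9 alone, and of the 7 above it in both lines 1 was higher and 2 were lower.

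Antioxidant genes that NRF2 is known to drive were more often lower than higher in HCC827. NRF2 is a transcription factor held down by KEAP1 until oxidants or electrophiles free it, and its targets make glutathione, reduce thioredoxin and detoxify aldehydes. Of 34 genes of this list 32 were counted, 1 higher, 16 lower and 15 under 2-fold with a median of -1.0. Of the 26 above 10 CPM in both lines, 1 was higher and 11 were lower, with a median of -0.74. The aldose reductase AKR1B1 was at 138 CPM in HCC827 and 2471 CPM in PC9, 17.9-fold lower (17.3 to 18.5), and AKR1C3 at 23 CPM in HCC827 and 350 CPM in PC9 (15.2-fold lower). SLC7A11, the cystine importer that feeds glutathione synthesis, was at 25.4 CPM in HCC827 and 369 CPM in PC9, 14.5-fold lower (13.5 to 15.7). Both subunits of the enzyme that starts glutathione synthesis were lower, GCLM at 55.9 CPM in HCC827 and 216 CPM in PC9 and GCLC at 50.1 CPM in HCC827 and 186 CPM in PC9. The secreted peroxidase GPX3 was at 0.255 CPM in HCC827 and 88.3 CPM in PC9 (346-fold lower, 168 to 862). Thioredoxin reductase TXNRD1 missed the 2-fold mark at 942 CPM in HCC827 and 1796 CPM in PC9. NQO1, a standard readout of NRF2, was within 2-fold at 446 CPM in HCC827 and 369 CPM in PC9, and the only member higher by 2-fold was UGDH at 166 CPM in HCC827 and 65.1 CPM in PC9. NFE2L2, which encodes NRF2, was at 107 CPM in HCC827 and 139 CPM in PC9, and KEAP1 at 87.0 CPM in HCC827 and 166 CPM in PC9.

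The difference was also present in the resistant pair, with 22 members lower and 1 higher and a median of -1.82. Among all genes 16.9% were lower and 16.6% higher in that pair. SLC7A11 stood at 14.5 CPM in HCC827-GR and 378 CPM in PC9-GR, AKR1C1 at 4.76 CPM in HCC827-GR and 1221 CPM in PC9-GR, and AKR1B1 at 621 CPM in HCC827-GR and 1848 CPM in PC9-GR. NQO1 was at 26.1 CPM in HCC827-GR and 288 CPM in PC9-GR, a gap not seen between the parental lines. H1975 stood near PC9 in AKR1B1 at 2755 CPM and in GPX3 at 92.1 CPM, but nearer to HCC827 in AKR1C2 at 1.95 CPM and AKR1C1 at 12.2 CPM. Drug-metabolising enzymes were divided, 5 of 18 counted higher and 7 lower, but 3 passed 10 CPM through HCC827 alone and 5 through PC9 alone, which fixes their direction. Among the 10 above 10 CPM in both lines 2 were higher and 2 lower. The retinal dehydrogenase ALDH1A3 was at 273 CPM in HCC827 and 1201 CPM in PC9. The cytochrome CYP4F11 was at 1.93 CPM in HCC827 and 40.5 CPM in PC9 (21.0-fold lower). Of 14 ABC transporters 10 were counted, 1 higher and 2 lower with a median of 0.14, the 2 lower being the drug exporters ABCG2 at 8.67 CPM in HCC827 and 27.4 CPM in PC9 and ABCC1 at 56.0 CPM in HCC827 and 128 CPM in PC9.

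Genes of cholesterol and fatty acid synthesis were higher in HCC827. These enzymes are switched on by the SREBP factors when sterols in the endoplasmic reticulum are low. Of 30 listed 28 were counted, 19 of them 2-fold higher and 0 lower with a median of 1.34, and all 30 had a ratio above 0. Of the 26 above 10 CPM in both lines, 17 were 2-fold higher, with a median of 1.30. INSIG1, which retains the SREBP complex, was at 144 CPM in HCC827 and 4.41 CPM in PC9 (32.6-fold higher, 26.5 to 40.6), and the sterol carrier STARD4 at 32.8 CPM in HCC827 and 2 reads (0.0969 CPM) in PC9. SREBF1, which encodes the factor for fatty acid synthesis, was at 294 CPM in HCC827 and 69.9 CPM in PC9 (4.21-fold, 3.98 to 4.45), while SREBF2, its cholesterol counterpart, was at 117 CPM in HCC827 and 105 CPM in PC9. Along the pathway, squalene synthase FDFT1 was at 336 CPM in HCC827 and 63.4 CPM in PC9 (5.30-fold) and the sterol oxidase MSMO1 at 80.7 CPM in HCC827 and 15.3 CPM in PC9. Other steps barely differed, with FASN at 553 CPM in HCC827 and 441 CPM in PC9, HMGCS1 at 89.7 CPM in HCC827 and 71.5 CPM in PC9, and IDI1 at 30.5 CPM in HCC827 and 29.5 CPM in PC9. In the resistant pair 3 members were higher and 4 lower with a median of 0.22, beside 16.6% higher and 16.9% lower among all genes. There INSIG1 was at 15.8 CPM in HCC827-GR and 7.93 CPM in PC9-GR and SCD at 117 CPM in HCC827-GR and 34.0 CPM in PC9-GR.

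Of 31 genes of glycolysis and hypoxia 29 were counted, 12 higher and 2 lower with a median of 0.48. Of the 25 above 10 CPM in both lines 10 were higher and 0 lower. The oxygen sensor EGLN3 was at 123 CPM in HCC827 and 14.9 CPM in PC9 (8.29-fold higher), the kinase PFKFB4 at 37.4 CPM in HCC827 and 6.06 CPM in PC9 (6.17-fold), the mitophagy receptor BNIP3 at 157 CPM in HCC827 and 32.8 CPM in PC9, and PGK1 at 2110 CPM in HCC827 and 689 CPM in PC9 (3.06-fold). GAPDH was 1.66-fold higher at 10635 CPM in HCC827 and 6419 CPM in PC9, and LDHA ran slightly the other way at 2814 CPM in HCC827 and 3589 CPM in PC9. Nuclear genes of oxidative phosphorylation were close, with 1 of 20 higher, 1 lower and a median of 0.11. PGK1 also made up the 1 of 15 reference genes that differed by 2-fold, the median of those 15 being -0.05.

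Epithelial adhesion genes were expressed in both lines. All 34 listed were counted, 32 of them above 10 CPM in both, with 8 higher and 2 lower in HCC827 and a median of 0.43. E-cadherin (CDH1) stood at 467 CPM in HCC827 and 213 CPM in PC9, 2.19-fold higher (2.12 to 2.27), P-cadherin (CDH3) at 427 CPM in HCC827 and 73.3 CPM in PC9 (5.82-fold), and the epithelial factor ELF3 at 468 CPM in HCC827 and 144 CPM in PC9. The tight junction genes CGN, OCLN, MARVELD2, CLDN3 and CLDN4 were higher by 2.19-fold to 4.25-fold. Claudin CLDN1 was the clearest exception at 17.3 CPM in HCC827 and 274 CPM in PC9 (15.9-fold lower, 14.4 to 17.5), with the apoptosis-linked desmosomal gene PERP at 181 CPM in HCC827 and 586 CPM in PC9. Vimentin (VIM), the mesenchymal filament, was low and close in both parental lines at 39.1 CPM in HCC827 and 31.8 CPM in PC9. Of 25 mesenchymal genes 7 were counted, 0 higher and 2 lower. The 2 lower ones passed 10 CPM through PC9 alone, which fixes their direction. Of the 4 above 10 CPM in both lines 0 were higher and 0 lower, with a median of 0.12. The resistant pair was another picture, with 1 of the epithelial genes higher and 22 lower and a median of -2.44, beside 16.6% higher and 16.9% lower among all genes. There CDH1 was at 22.1 CPM in HCC827-GR and 151 CPM in PC9-GR, the splicing regulator ESRP1 at 0.187 CPM in HCC827-GR and 137 CPM in PC9-GR, and VIM at 878 CPM in HCC827-GR and 104 CPM in PC9-GR.

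Basement membrane and integrin genes were more often lower than higher in HCC827. Of 33 laminins, collagens and integrins 26 were counted, 2 higher and 14 lower with a median of -2.02, and of the 19 above 10 CPM in both lines 1 was higher and 8 were lower with a median of -0.61, under 2-fold. Chains of the laminin of epithelial hemidesmosomes were on this side, LAMA3 at 83.5 CPM in HCC827 and 560 CPM in PC9 (6.72-fold lower) and LAMB3, just under 2-fold, at 213 CPM in HCC827 and 408 CPM in PC9. Their receptor integrin alpha-6 beta-4 followed, with ITGA6 at 130 CPM in HCC827 and 1329 CPM in PC9 (10.2-fold lower, 9.89 to 10.6) and ITGB4 at 85.1 CPM in HCC827 and 504 CPM in PC9 (5.92-fold lower). COL7A1, the collagen of anchoring fibrils, had 94 reads (3.43 CPM) in HCC827 and 2063 reads in PC9, 29.2-fold lower. Collagen IV showed both directions, with COL4A2 at 57.7 CPM in HCC827 and 1 read in PC9, and COL4A6 at 2.33 CPM in HCC827 and 81.7 CPM in PC9 (35.0-fold lower) and COL4A5 at 30.4 CPM in HCC827 and 135 CPM in PC9. Laminin LAMA5 was the other higher member at 473 CPM in HCC827 and 206 CPM in PC9, and ITGB1 was alike at 1031 CPM in HCC827 and 926 CPM in PC9.

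Secreted and membrane markers of the S100 and CEACAM families were lower in 7 of 12 counted members and higher in 1, with a median of -1.30. Of the 8 above 10 CPM in both lines 4 were lower and 1 was higher, with a median of -0.71. S100A4, a calcium-binding protein linked to motility, was at 9.18 CPM in HCC827 and 490 CPM in PC9 (53.4-fold lower, 47.1 to 60.7), S100A9 at 0.692 CPM in HCC827 and 67.4 CPM in PC9 (97.4-fold lower), and CEACAM6 at 84.4 CPM in HCC827 and 576 CPM in PC9 (6.82-fold lower). S100A4 kept the gap at 2.89 CPM in HCC827-GR and 469 CPM in PC9-GR.

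Wnt pathway genes were lower in 9 of 17 counted members and higher in 3, with a median of -1.04, but 6 of the 9 passed 10 CPM through PC9 alone, which fixes their direction. Of the 9 above 10 CPM in both lines 3 were lower and 1 was higher, with a median of -0.65. The secreted inhibitor SFRP1 had no read in HCC827 and 55.7 CPM in PC9, at least 510-fold lower, and DKK1, another inhibitor, was at 8.45 CPM in HCC827 and 96.3 CPM in PC9 (11.4-fold lower). The receptor FZD7 was at 2.84 CPM in HCC827 and 70.6 CPM in PC9 (24.8-fold lower), the ligand WNT7A at 0.328 CPM in HCC827 and 16.9 CPM in PC9, and the factor TCF7 at 1.46 CPM in HCC827 and 28.4 CPM in PC9 (19.5-fold lower). These 5 all passed through PC9 alone. The receptor FZD5, above 10 CPM in both lines, was at 46.9 CPM in HCC827 and 14.1 CPM in PC9. In the TGF-beta and BMP list 5 of 23 counted genes were higher and 7 lower, 6 of the 7 through PC9 alone. The 4 inhibitors of differentiation, which BMP signalling induces, were all higher, ID1 at 297 CPM in HCC827 and 65.0 CPM in PC9 (4.56-fold), ID2 at 50.2 CPM in HCC827 and 0 in PC9 (at least 345-fold), ID3 at 90.3 CPM in HCC827 and 12.5 CPM in PC9 (7.25-fold) and ID4 at 16.8 CPM in HCC827 and 3.01 CPM in PC9 (5.59-fold). The matrix proteins LTBP2 and LTBP1 were lower. LTBP2 was at 8.56 CPM in HCC827 and 197 CPM in PC9 (23-fold lower) and LTBP1 at 2.99 CPM in HCC827 and 42.0 CPM in PC9.

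Germline genes that tumours express, the cancer-testis antigens, were mostly found in 1 line or the other. Of 30 listed 15 were counted, 5 through HCC827 alone and 10 through PC9 alone, which fixes their direction. PC9 held the MAGEA and MAGEC genes of this list, with MAGEA3 at 0.328 CPM in HCC827 and 271 CPM in PC9, MAGEC1 at 0 in HCC827 and 85.2 CPM in PC9 (at least 779-fold lower), and MAGEA10 at 0 in HCC827 and 51.9 CPM in PC9 (at least 475-fold lower). The reads of MAGEA2 were 1% unique, and MAGEA3 and MAGEA6 are near-copies. HCC827 held CT83 at 18.8 CPM against 0 in PC9 (at least 129-fold higher), the bromodomain gene BRDT at 20.0 CPM against 0.0969 CPM in PC9, and PRAME at 19.7 CPM against 0.194 CPM in PC9. XAGE1A and XAGE1B stood at 116 and 120 CPM in HCC827 and 0 in PC9 by total reads, but 0% and 1% of those reads were unique, and by uniquely mapping reads their log2 ratios were 0.00 and 0.91. All 10 MAGE, VCX and CTAG2 genes that PC9 held were without a read in H1975. Neuronal genes on a list of 19 gave 4 counted. The 3 lower ones passed through PC9 alone, ENO2, the 1 above 10 CPM in both lines, was higher, and over all 19 the ratio was above 0 for 6 and below 0 for 9. The 3 lower were UCHL1 and the adhesion molecules NRCAM at 1.02 CPM in HCC827 and 90.9 CPM in PC9 (89.1-fold lower) and L1CAM at 0.583 CPM in HCC827 and 41.6 CPM in PC9.

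Over all genes, 102 (0.973%) had at least 10 CPM in HCC827 and under 0.2 CPM in PC9, and 101 (0.964%) the reverse. Of the 102, 58 had no read in PC9, 85 were also under 0.2 CPM in PC9-GR, 72 were at 10 CPM or more in HCC827-GR and 60 met both. Of the 101, 42 had no read in HCC827, 78 were under 0.2 CPM in HCC827-GR, 88 were at 10 CPM or more in PC9-GR and 68 met both. H1975 had 46 of the 102 at 10 CPM or more, and 13 of the 101. Among the genes without a read in PC9 were 2 neighbours at the end of the long arm of chromosome 19, picked out after their values were seen. UBE2M, the enzyme that carries NEDD8 to cullins, had 2545 reads (92.7 CPM) in HCC827 and 0 in PC9, at least 638-fold higher, and 110 CPM in HCC827-GR and 0 in PC9-GR. MZF1, a zinc finger factor, had 360 reads in HCC827 and 0 in PC9. Introns gave the same pattern, with 75 reads of UBE2M and 420 of MZF1 in HCC827 and 0 of each in PC9. The nearby TRIM28 and CHMP2A were present in both lines, TRIM28 at 654 CPM in HCC827 and 235 CPM in PC9 and CHMP2A at 145 CPM in HCC827 and 75.4 CPM in PC9. H1975 had 74.7 CPM of UBE2M and 16 CPM of MZF1.

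Tumour suppressors and oncogenes of lung adenocarcinoma differed little. Of 29 listed 26 were counted, 3 higher and 1 lower with a median of -0.29. NKX2-1, CDKN2A and its neighbour MTAP were the 3 higher, CDKN2A at 249 CPM in HCC827 and 120 CPM in PC9 and MTAP at 180 CPM in HCC827 and 62.0 CPM in PC9, with 53% and 28% of their reads unique. PIK3CA was the lower, at 32.2 CPM in HCC827 and 72.5 CPM in PC9 (2.25-fold lower, 2.07 to 2.45). SMAD4 was at 32.8 CPM in HCC827 and 63.9 CPM in PC9 and MYC at 247 CPM in HCC827 and 179 CPM in PC9. RB1 and STK11 lay within 1.26-fold between the lines. Mitotic genes were alike, with 2 of 30 higher, 1 lower and a median of -0.21, the exceptions being CDC20 at 548 CPM in HCC827 and 179 CPM in PC9, AURKB at 128 CPM in HCC827 and 56.4 CPM in PC9 and CDK1 at 84.7 CPM in HCC827 and 227 CPM in PC9. Of 17 counted genes of the G1 phase 2 were higher, CDK4 and CDKN2A, and 3 lower, with cyclin E1 (CCNE1) at 13.2 CPM in HCC827 and 53.2 CPM in PC9 (4.03-fold lower) and cyclin D1 (CCND1), within 2-fold, at 316 CPM in HCC827 and 508 CPM in PC9. Among 12 counted BCL2 family genes 3 were higher and 1 lower. BMF and BCL2L11 (BIM) stood at 73.1 and 33.5 CPM in HCC827 and at 17.4 and 15.2 CPM in PC9. The lower gene was BID at 7.62 CPM in HCC827 and 59.2 CPM in PC9.

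Of 22 YAP target and TEAD genes 20 were counted, 2 higher and 5 lower with a median of -0.56, and CYR61, a matricellular target, was at 533 CPM in HCC827 and 131 CPM in PC9. In the resistant pair 10 were higher and 3 lower, beside 16.6% higher and 16.9% lower among all genes, with CYR61 at 3361 CPM in HCC827-GR and 148 CPM in PC9-GR. Of 15 stem cell markers 8 were counted, 3 higher and 4 lower, with CD24 at 563 CPM in HCC827 and 49.7 CPM in PC9 (11.3-fold higher), CD44 at 312 CPM in HCC827 and 923 CPM in PC9, and SOX9 at 6.05 CPM in HCC827 and 81.9 CPM in PC9. Of 34 HOX genes 6 were counted and 3 were higher, but 4 passed 10 CPM through HCC827 alone, which fixes their direction. Of the 2 above 10 CPM in both lines 0 were higher and 0 lower. Over all 34 the ratio was above 0 for 18 and below 0 for 12. Most reads of HOXA10 were not unique. Of 20 imprinted genes 7 were counted, with SNRPN at 0 in HCC827 and 23.1 CPM in PC9 (at least 211-fold lower, 54% unique reads in PC9). The metallothioneins had a single counted gene of 10, MT2A, at 115 CPM in HCC827 and 60.0 CPM in PC9, and the longer lists of leukocyte, endothelial and fibroblast genes had 2, 2 and 1 counted members.

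Ratios also varied by place on the genome. Among the 22 autosomes chromosome 14 had the highest median, 0.97 over 361 genes with 175 of them (48.5%) 2-fold higher, and its median was 0.63 in the resistant pair. Chromosomes 17 and 20 followed at 0.47 and 0.43. The lowest were chromosome 13 at -0.71, with 34.5% of genes 2-fold lower and -0.72 in the resistant pair, and chromosome 18 at -0.67, which stood at 0.33 in the resistant pair. In 425 windows of 5 Mb with at least 8 counted genes, medians ran from -1.64 to 2.30, 12 windows reached 1 and 18 reached -1. The highest lay at 70 to 75 Mb of chromosome 8, where 11 of 14 genes were higher, among them the elongin subunit ELOC at 460 CPM in HCC827 and 54.1 CPM in PC9 (8.50-fold higher). Its median was 2.50 in the resistant pair. Of the 5 highest windows 3 were on chromosome 14, at 95 to 100, 20 to 25 and 90 to 95 Mb, with medians of 1.97, 1.53 and 1.5. In the window at 20 to 25 Mb, 50 of 66 genes were higher, for example the proteasome activator PSME2 at 306 CPM in HCC827 and 45.6 CPM in PC9, while its most abundant gene HNRNPC was close at 987 CPM in HCC827 and 941 CPM in PC9. The window at 90 to 95 Mb held the helicase DDX24 at 277 CPM in HCC827 and 45.6 CPM in PC9. The lowest window, at 5 to 10 Mb of chromosome 10, had 11 of 12 genes lower and holds AKR1C3 as well as the unrelated GDI2, at 107 CPM in HCC827 and 351 CPM in PC9, and the ATP synthase subunit ATP5F1C, at 95.3 CPM in HCC827 and 226 CPM in PC9. AKR1C1 and AKR1C2 lie in the adjoining window, whose median was -1.35 and where the glycolytic PFKP stood at 144 CPM in HCC827 and 286 CPM in PC9. On chromosome 5 the chaperonin subunit CCT5 was at 600.0 CPM in HCC827 and 1505 CPM in PC9 in a window with a median of -1.32. Copy number was not measured and its part was not tested. Across the 425 windows, the medians of the parental and the resistant pair correlated at r = 0.74, a description in which neighbouring windows are not independent.

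**Figure D5:**
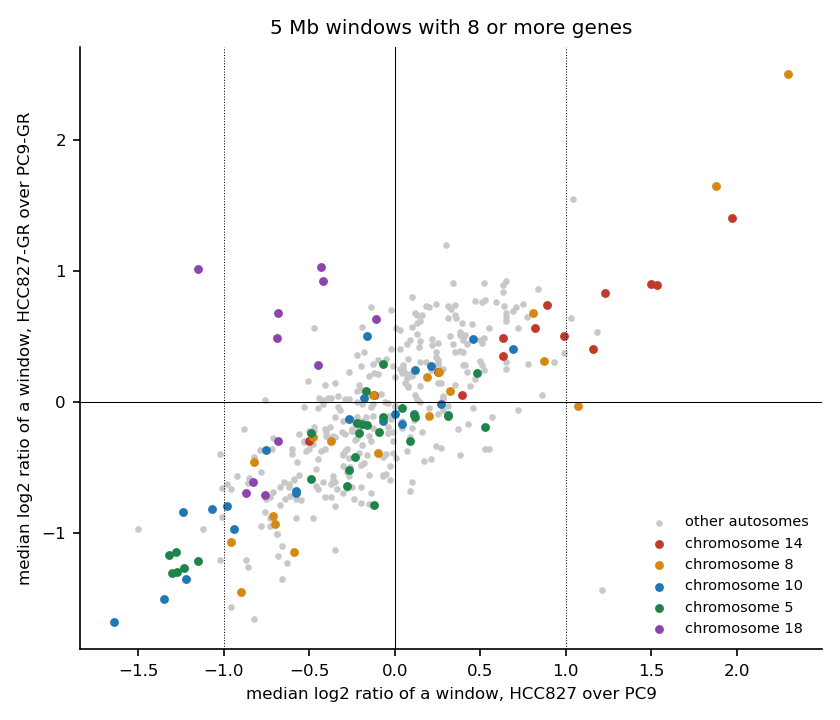
Median log2 ratio of genes in 5 Mb windows, HCC827 over PC9 on the x axis and HCC827-GR over PC9-GR on the y axis, 1 point per window. Windows of chromosomes 14, 8, 10, 5 and 18 are coloured. Chromosome 14 windows lie mostly in the upper right, and chromosome 18 windows left of 0 on the x axis but mostly above 0 on the y axis.

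The resistant sublines, separate libraries derived from the same lines, kept much of the difference. Of the 1535 genes higher in HCC827, 969 (63.1%) were also at least 2-fold higher in HCC827-GR than in PC9-GR, and 39 (2.54%) were 2-fold lower. Of the 1501 lower genes, 985 (65.6%) were 2-fold lower in HCC827-GR and 35 (2.33%) were 2-fold higher. Among the 16-fold genes the shares were 109 of 120 (90.8%) and 152 of 165 (92.1%). The resistant pair differed 2-fold at 35.6% of the 10646 genes with 10 CPM in either of its libraries. Intron reads of the same 2 parental libraries, which come mostly from unspliced transcripts, gave log2 ratios that correlated at r = 0.872 with those of exons over 8012 genes with enough intron reads. Of the 1096 genes of these that were 2-fold higher in exons, 823 (75.1%) were 2-fold higher in introns and 4 were 2-fold lower, and of the 1119 lower genes 827 (73.9%) were lower and 7 higher. ISG15, with few intron reads, was 1 of the named genes that did not follow, with an intron log2 ratio of -0.55.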

How the data were processed

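The authors deposited, for each of 6 libraries, read counts per gene for 21463 genes (total exon, uniquely mapping exon and intron reads, per the file headers) and TPM computed from them. Per the labels' protocols the libraries were stranded and selected for mRNA. Trimmomatic, Bowtie2 and hg38 appear in the submitters' processing notes without a role or version, and the counter and annotation were not given in the sources used here. A series table of rounded TPM was not used.

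Total exon counts were scaled with TMM factors from edgeR 4.0.16 (R 4.3.3), computed over 13541 genes kept by filterByExpr with a minimum count of 10. Genes with at least 10 CPM in HCC827 or PC9 were counted as measured, and a fold of 2 was the mark for higher or lower. Log2 ratios used a pseudocount of 1 CPM. Fold intervals are exact 95% Clopper-Pearson intervals on reads and cover counting error only. For folds given as at least a value, a gene without reads was set at 3 counts in that library. Its log2 ratio used the pseudocount only. Levels were not corrected for gene length, so they are compared between lines and not between genes. Intron ratios used genes with at least 50 intron reads. Tables were made with pandas 2.3.3, numpy 2.4.6 and scipy 1.17.1 and plots with matplotlib 3.10.9. The log2 ratio and the fold interval were tested on simulated counts that held counting error only.

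The gene lists and comparisons were chosen with earlier results of these data known. Named by rule were the 15 highest and 15 lowest ratios among autosomal protein coding genes with at least 80% unique reads, and, without those conditions, up to 4 members of each list with the largest ratios of either sign, the genes within 5 Mb of EGFR, the 3 most abundant genes of the 5 highest and 5 lowest windows, and a set of lung cancer genes such as EGFR and MET. Some genes are not reported here. Further list members, the genes around CDK4 and those at the end of chromosome 19 were named after their values were seen. Alternatives were library size scaling, DESeq2 1.42.0 size factors, unique reads, TPM, other pseudocounts and other filters.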

Additional observations from a re-analysis of the deposited data

Results flagged for a closer look

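Of the 203 genes named by rule, 8 were at least 2-fold apart in both pairs of lines but in opposite directions. Over all genes counted, this held for 39 of the 1535 higher in HCC827 (2.54%) and 35 of the 1501 lower (2.33%). The rule named every counted gene within 5 Mb of EGFR, so the 8 are not an even sample of such genes. No difference between the pairs was tested, because each line has 1 library. EGFR had a log2 ratio of -2.56 in HCC827-GR over PC9-GR and 1.33 in HCC827 over PC9. Its chromosome 7 neighbours followed, SEC61G with -1.70 in the resistant and 3.74 in the parental pair, VOPP1 with -1.42 and 2.60, and LANCL2 with -1.04 and 2.80. The EGFR ligand AREG had -1.26 in the resistant and 2.71 in the parental pair. The cadherins CDH1 and CDH3 had -2.72 and -2.0 in the resistant pair, against 1.13 and 2.52 in the parental pair. LOX, which crosslinks collagen, ran the other way, with 1.15 in the resistant pair (34.9 CPM in HCC827-GR and 15.2 CPM in PC9-GR) and -2.19 in the parental pair (2.0 CPM in HCC827 and 12.7 CPM in PC9).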

How the results depend on the processing

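No paired analysis was possible because each line has 1 library per state. Over all the alternatives tried, 2-fold higher genes made up 45.7% to 51.2% of those 2-fold apart, against 50.6% as reported. Asking for 50 CPM in either library left fewer genes and gave 664 higher and 790 lower, 918 that were 2-fold the same way in the resistant pair, and 1902 between HCC827 and H1975 and 1782 between PC9 and H1975. Windows of 10 Mb gave 11 with a median of -1 or less, in place of 18. Over lists and settings, 256 list medians stayed within the typical counting interval of their members, 89 moved further, and 2 medians of at least 2-fold changed sign. Of 142 recomputed medians of lists at least 2-fold apart, 25 came under 2-fold. With no filter on level these were the squamous list at -0.09 (reported -2.74), the neuronal list at 0.00 (-5.13), the gastrointestinal list at 0.33 (4.69), the EGFR family at 0.07 (1.27) and the cancer-testis list at -0.01 (-5.40), among others. The NRF2 median was -0.85 with a pseudocount of 5 CPM. The HOX median was -0.10 with uniquely mapping reads, against 1.14 as reported, and the stem cell marker median was 0.10 with no filter on level, against -1.04. The cause was not tested. Of 1080 recomputed log2 ratios of named genes that were at least 2-fold apart, 0 changed sign and 10 came under 2-fold, among them CD274 at 0.85 and SFTPB at 0.72 with a pseudocount of 5 CPM. Differences of genes with few reads in 1 line are limited by depth.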
